A study of Saccharomyces cerevisiae with 4 samples.

Results

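The genes described here are the 38 nuclear genes of budding yeast that encode the NADH dehydrogenases, succinate dehydrogenase (complex II), the cytochrome bc1 complex (complex III), cytochrome c, cytochrome c oxidase (complex IV) and the mitochondrial ATP synthase. They were taken by name from these complexes and not by any measured value, and they are 38 of the 6063 genes read on at least 1 array. By complex they are 3 NADH dehydrogenases, 4 subunits of complex II, 9 of complex III, 2 forms of cytochrome c, 9 genes for subunits of complex IV and 11 for subunits of the ATP synthase.

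The respiratory chain lies in the inner mitochondrial membrane. Electrons from NADH and succinate pass through ubiquinone to complex III, then through cytochrome c to complex IV, which reduces oxygen to water. Complexes III and IV build a proton gradient that the ATP synthase uses to make ATP. Budding yeast has no proton-pumping complex I and oxidizes NADH with single-protein dehydrogenases on either face of the membrane. Most of these proteins are made from nuclear genes, many of which are switched on by the Hap2/3/4/5 complex and by the heme-responsive activator Hap1. Several subunits carry heme, copper, iron-sulfur clusters or zinc.

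The data come from 4 spotted whole-genome arrays in 2 colours, each of which compared the mRNA of a pair of cultures of the haploid laboratory strain DY1457 (mating type alpha, with ade6, can1, his3, leu2, trp1 and ura3 mutations). Zap1 is the transcriptional activator that yeast switches on in zinc deficiency, and the study searched for its targets. In E4 (2 arrays), DY1457 was grown in LZM, a medium with EDTA and citrate as metal buffers, with 3 µM ZnCl2, against LZM with 3 mM ZnCl2, for 14 to 16 h to an OD600 of about 0.7. In E3 (2 arrays), DY1457 carried Zap1TC, a Zap1 allele that zinc does little to switch off, under the GAL1 promoter on the plasmid pYef2, against the empty vector, and both cultures grew for 20 to 24 h in SD medium with 2% galactose and 1 µM added ZnCl2, to an OD600 of about 0.8. The paper calls this SD medium zinc-replete, as it holds micromolar zinc and no strong chelator, so neither E3 culture was zinc-limited. No culture lacked the chromosomal ZAP1 gene, so E3 added Zap1TC to the cell's own Zap1. The carbon source of LZM was not given in the sources used here. Each array used its own pair of cultures. On all 4 arrays Cy5 marked the low-zinc or Zap1TC culture and Cy3 the zinc-replete or vector culture. Dye and condition therefore cannot be told apart within an experiment, nor for a change of the same direction in both experiments.

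The arrays held between 10036 and 11303 usable spots for between 5295 and 5934 genes, and 35 and 36 of the 38 genes were read on the E4 arrays and 37 and 37 on the E3 arrays. The log2 ratios of replicate arrays had a Pearson's r of 0.940 over 5129 genes in E4 and 0.944 over 5780 genes in E3, where genes are not independent replicates. ZRT1, the high-affinity zinc transporter, had log2 ratios of 6.44 and 6.84 in E4, and ZAP1 had 6.84 and 6.47 in E3, both in the direction of the labels. Ratios below are log2 values of the low-zinc culture over the zinc-replete culture (E4) or of the Zap1TC culture over the vector culture (E3). A gene was called higher or lower where limma's two-sided test, adjusted over all genes by Benjamini-Hochberg, gave p under 0.05. The study's own rule asks for a mean change of 1.5-fold or more, with 1.4-fold or more on both arrays. Errors are SDs over the n = 2 arrays of an experiment, and this number of arrays limits the precision.

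In low zinc 6 of 10 tested ATP synthase genes and 4 of 8 complex IV genes rose, while 4 of 8 complex III genes, both cytochrome c genes and 1 of 4 complex II genes fell. In E4, 34 of the 38 genes were read on both arrays, of which 11 were called higher, 7 lower and 16 neither. Over all 5129 genes tested, 25.9% were called higher and 25% lower, so the counts over the whole group stood near the background. The directions divided by complex. No ATP synthase or complex IV gene was called lower, and no complex III gene was called higher. For the ATP synthase this did not hold in every alternative, as ATP14 was called lower with loess within print-tip blocks. The median log2 ratio of the 34 genes was -0.01, against -0.00066 over all genes tested.

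Zap1TC gave another division. In E3, 36 genes were read on both arrays, of which 6 were called higher, 13 lower and 17 neither, against 29.4% of all 5780 genes called higher and 29.4% called lower. The external NADH dehydrogenases and the membrane anchor gene SDH4 rose, QCR6, QCR8 and CYC7 fell, and no complex IV gene rose. The median log2 ratio was -0.13, against 0.00099 over all genes tested.

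Most of these differences were small as fitted. In simulated data a 2-fold change, or 1 on the log2 scale, had a median fitted value of 0.69 in E4 and 0.72 in E3. Fitted sizes can therefore run low. By the study's rule 0 genes were higher and 1 was lower in E4, where 4.64% and 1.93% of all genes passed in those directions. In E3, 3 were higher and 3 were lower by the same rule, against 7.01% and 5.35% of all genes. The gene past the rule in E4 was CYC1, and those in E3 were NDE1, NDE2 and SDH4, which were higher, and QCR6, QCR8 and CYC7, which were lower.

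**Figure D1:**
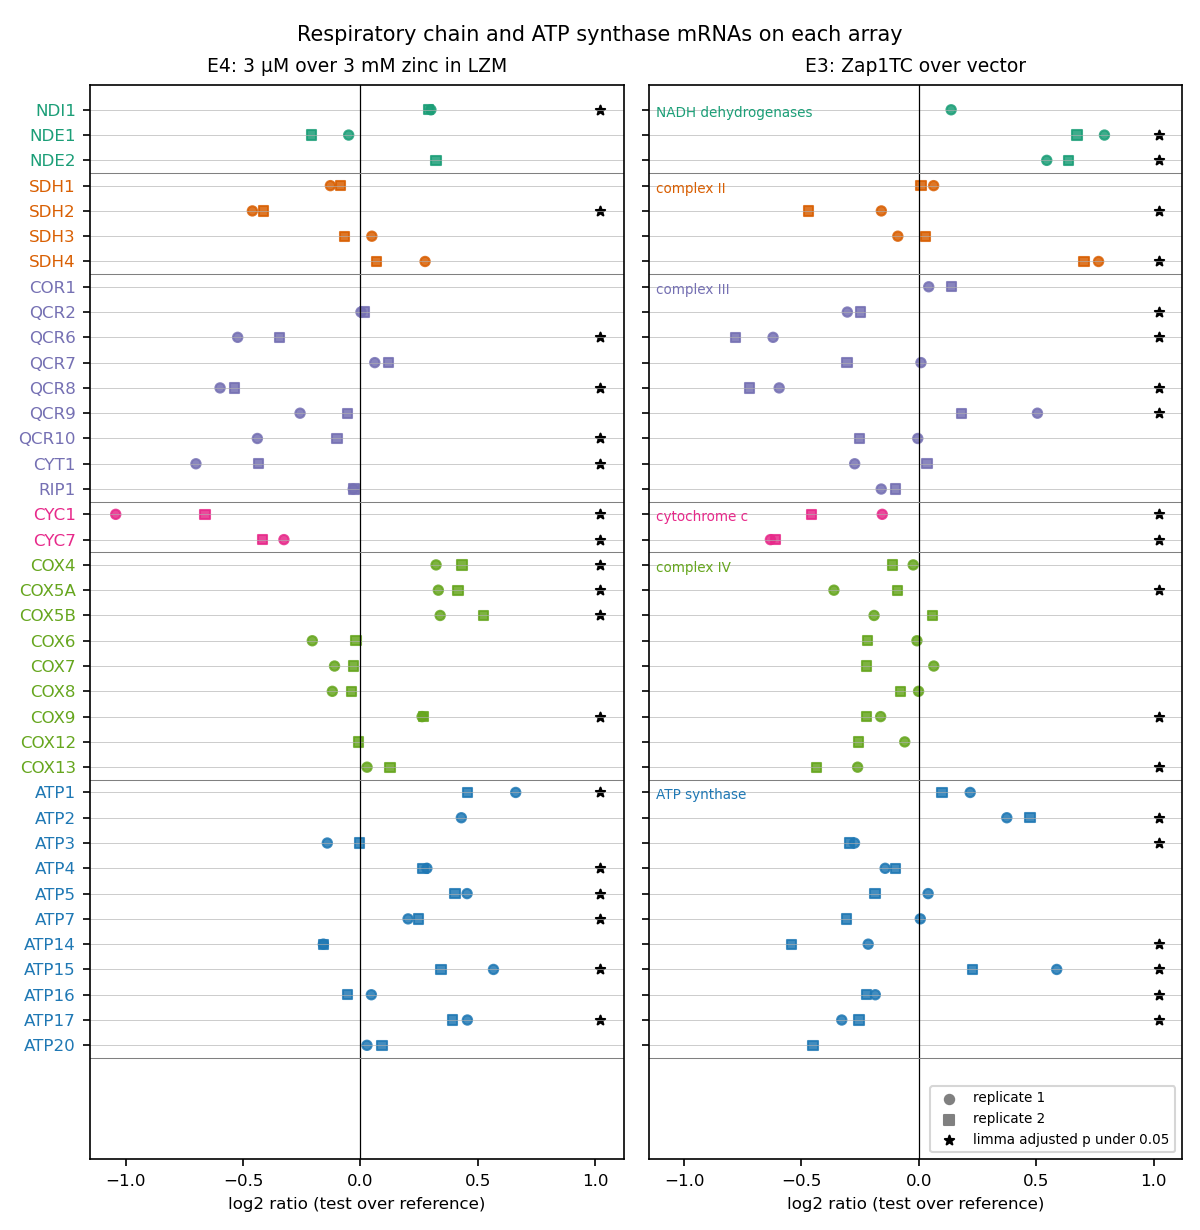
Log2 ratio (x axis) of each of the 38 genes (y axis, grouped and coloured by complex) on each array, for E4 on the left and E3 on the right, with circles for replicate 1, squares for replicate 2 and stars for genes past limma's adjusted p. In E4 the starred ATP synthase and complex IV genes lie to the right of 0 and the starred complex III and cytochrome c genes to the left, and in E3 NDE1, NDE2 and SDH4 lie farthest to the right.

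Of the NADH dehydrogenases, NDE1 (YMR145C) and NDE2 (YDL085W), which oxidize cytosolic NADH on the outer face of the inner membrane, rose with Zap1TC. NDE1 had log2 ratios of -0.05 and -0.21 in low zinc (mean -0.13 ± 0.11, adjusted p = 0.131) and of 0.79 and 0.67 with Zap1TC (mean 0.73 ± 0.08, 1.66-fold, adjusted p = 6.2e-06). The 2 experiments did not overlap for NDE1, and the E4 minus E3 difference was -0.86 (95% interval -1.07 to -0.65, limma adjusted p = 4.6e-05). The spots of NDE1 on the E3 arrays gave 1551 and 1068 intensity units above background for Zap1TC, against 929 and 646 for the vector. NDE2, the paralog of NDE1, had 0.54 and 0.64 with Zap1TC (mean 0.59 ± 0.07, 1.51-fold, adjusted p = 4.0e-05). It was read on 1 array of E4, at 0.32, so it had no test there. NDI1 (YML120C), the dehydrogenase of the matrix face, had 0.30 and 0.29 in low zinc (mean 0.29 ± 0.01, 1.23-fold, adjusted p = 0.00367) and 0.14 on the 1 array that read it with Zap1TC.

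The 4 genes of complex II did not move together. SDH4 (YDR178W), which encodes a membrane anchor subunit, had 0.28 and 0.07 in low zinc (mean 0.17 ± 0.15, adjusted p = 0.0565) and 0.76 and 0.70 with Zap1TC (mean 0.73 ± 0.04, 1.66-fold, adjusted p = 7.0e-06). The difference between the experiments was -0.56 (limma adjusted p = 7.8e-04), and with plain background subtraction it was -0.25 and not called. SDH2 (YLL041C), the iron-sulfur subunit, had -0.46 and -0.41 in low zinc (1.35-fold lower, adjusted p = 9.9e-04) and -0.16 and -0.47 with Zap1TC (1.24-fold lower, adjusted p = 0.0048). The E3 call for SDH2 was lost without the second E3 array, which left -0.16. SDH1 (YKL148C), the flavoprotein, and SDH3 (YKL141W), the other anchor, were called in neither experiment, with means between -0.11 and 0.04. SDH3 and SDH4 form the membrane anchor together, yet SDH3 had -0.09 and 0.03 on the Zap1TC arrays on which SDH4 had 0.76 and 0.70.

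Complex III passes electrons from ubiquinol to cytochrome c, and its genes fell or were not called, with QCR9 (YGR183C) in E3 as the exception. QCR8 (YJL166W), a small subunit, had -0.60 and -0.53 in low zinc (1.48-fold lower, adjusted p = 5.5e-05) and -0.59 and -0.72 with Zap1TC (1.58-fold lower, adjusted p = 9.5e-06). QCR6 (YFR033C), the acidic hinge protein, had -0.52 and -0.34 in low zinc (1.35-fold lower, adjusted p = 6.0e-04) and -0.62 and -0.78 with Zap1TC (1.63-fold lower, adjusted p = 1.2e-05). Both genes therefore fell on all 4 arrays and were called lower in both experiments, where dye and condition cannot be told apart. The 2 experiments differed for QCR6 by 0.27 (limma adjusted p = 0.046), which was not called without the second E3 array or the second E4 array, and no difference was called for QCR8 (adjusted p = 0.422). In fluorescence, QCR8 gave 595 and 703 units in low zinc against 899 and 931 in zinc-replete cells, and 1002 and 563 with Zap1TC against 1626 and 953 with the vector.

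CYT1 (YOR065W), the cytochrome c1 heme protein of the complex, had -0.70 and -0.44 in low zinc (mean -0.57 ± 0.19, 1.48-fold lower, adjusted p = 4.0e-04) and -0.27 and 0.03 with Zap1TC (mean -0.12 ± 0.22, adjusted p = 0.257). The difference was -0.45 (adjusted p = 0.0114), and it was not called without the second E3 array or without the first E4 array. QCR9, another small subunit, had -0.26 and -0.06 in low zinc (adjusted p = 0.140) and 0.50 and 0.18 with Zap1TC (1.27-fold, adjusted p = 0.0047), a difference of -0.50 (adjusted p = 0.0052). Without the first E3 array QCR9 had 0.18 in E3 and was not called. Its E3 call was also lost with loess within print-tip blocks and with the deposited log2 values. QCR2 (YPR191W), a core protein, had 0.00 and 0.02 in low zinc and -0.30 and -0.25 with Zap1TC (1.21-fold lower, adjusted p = 0.0025), with a difference of 0.29 (adjusted p = 0.018) that was not called without the first E3 array or without either E4 array. QCR10 (YHR001W-A) had -0.44 and -0.10 in low zinc (adjusted p = 0.027), a call that was lost without the first E4 array. Neither QCR7 (YDR529C) nor RIP1 (YEL024W), the Rieske iron-sulfur protein, was called in either experiment. COR1 (YBL045C), the other core protein, gave 19.5 and 12.8 units with Zap1TC against 25.2 and 12.8 with the vector, among the dimmest of the group, and was not read in E4.

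Cytochrome c is the soluble carrier between complexes III and IV, and both of its genes fell in both experiments. CYC1 (YJR048W), the main aerobic form, had -1.04 and -0.66 in low zinc (mean -0.85 ± 0.27, 1.81-fold lower, adjusted p = 5.4e-05), the lowest mean of the group in E4. Its spots gave 236 and 405 units in low zinc against 535 and 618 in zinc-replete cells. With Zap1TC it had -0.16 and -0.46 (mean -0.31 ± 0.21, 1.24-fold lower, adjusted p = 0.0175), a call that was lost without the second E3 array. The difference of -0.55 between the experiments (adjusted p = 0.0069) was lost with plain background subtraction, with loess within print-tip blocks and with the deposited log2 values.

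CYC7 (YEL039C), the form of low-oxygen growth, had -0.33 and -0.42 in low zinc and -0.63 and -0.61 with Zap1TC (1.54-fold lower in E3, adjusted p = 1.1e-05). In low zinc the Cy5 spots of CYC7 were not well above background on either E4 array (5.20 and 19.2 units in low zinc against 29.1 and 46.5 in zinc-replete cells), so the fall there was at least 1.11-fold (limma adjusted p = 6.8e-04 for the measured values). This bound sets the zinc-replete mean against the higher of the probe's own signal and the lowest signal well above background. Since E4 gives only this bound, no exact difference between the experiments can be given for CYC7. The fitted difference of 0.25 (adjusted p = 0.034) turned to -0.43 with plain background subtraction and was not called when any 1 array was left out.

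**Figure D2:**
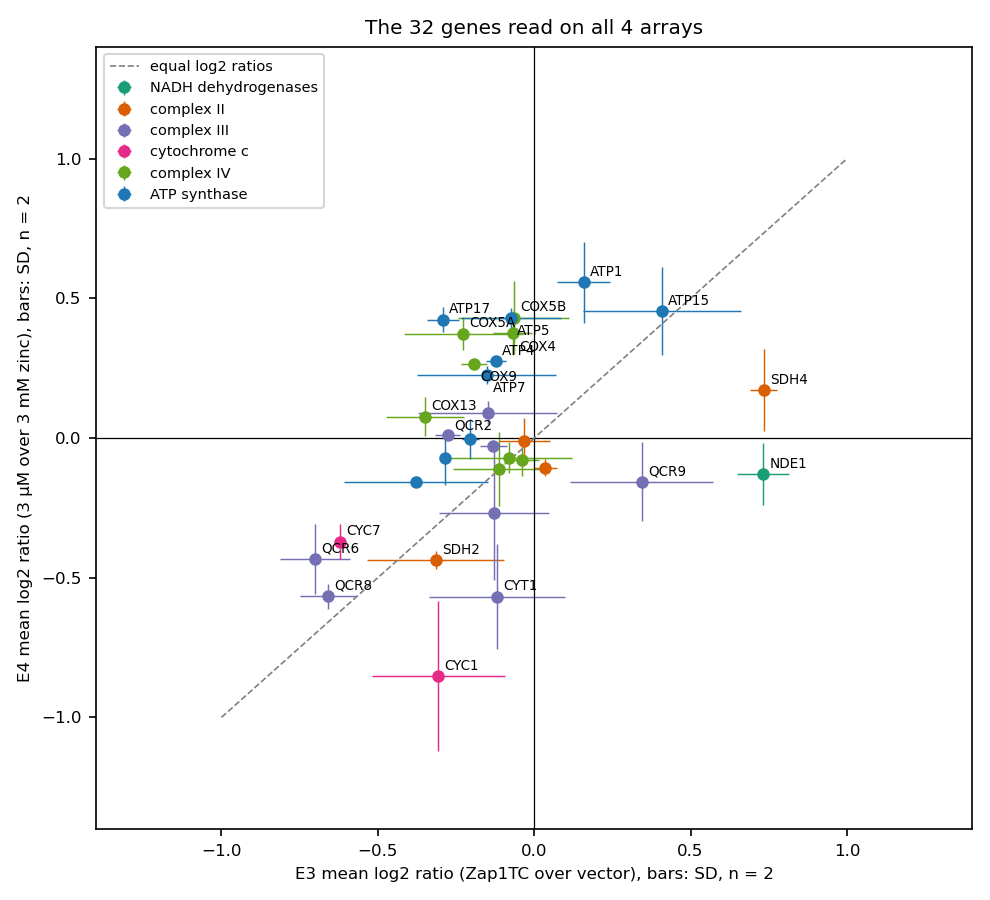
Mean log2 ratio in E4 (y axis, 3 µM over 3 mM zinc) against that in E3 (x axis, Zap1TC over vector) for the 32 genes read on all 4 arrays, coloured by complex, with SDs over 2 arrays and a dashed line where both are equal. Of the genes with a called difference, NDE1, SDH4, QCR9, CYT1 and CYC1 lie to the right of the line, and the ATP synthase and complex IV genes above it. QCR6, QCR8, SDH2, CYC1 and CYC7 were called lower in both experiments, where CYC7 was not well above background in the Cy5 channel of E4.

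Complex IV had 4 nuclear subunit genes called higher in low zinc. COX4 (YGL187C), whose protein binds zinc, had 0.32 and 0.43 in low zinc (mean 0.38 ± 0.08, adjusted p = 7.6e-04) and -0.02 and -0.11 with Zap1TC (mean -0.07 ± 0.06, adjusted p = 0.376). The difference for COX4 was 0.45 (adjusted p = 0.0020). With loess within print-tip blocks COX4 had 0.34 in E3, called higher, and its difference of 0.09 was not called. COX9 (YDL067C) had 0.26 and 0.27 in low zinc (1.20-fold, adjusted p = 0.0044) and -0.16 and -0.22 with Zap1TC (adjusted p = 0.018), a difference of 0.46 (adjusted p = 0.0013). The E3 call for COX9 was lost without either E3 array.

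COX5A (YNL052W) and COX5B (YIL111W) encode alternative forms of the same subunit, used with ample and with scarce oxygen. COX5A had 0.33 and 0.42 in low zinc (mean 0.37 ± 0.06, adjusted p = 0.0020) and -0.36 and -0.09 with Zap1TC (mean -0.23 ± 0.19, adjusted p = 0.021). COX5B had 0.34 and 0.52 in low zinc (mean 0.43 ± 0.13, 1.35-fold, adjusted p = 0.0010) and -0.19 and 0.06 with Zap1TC (mean -0.07 ± 0.18, adjusted p = 0.481). Both forms were thus called higher in low zinc, with overlapping array values, and both differed between the experiments, by 0.60 for COX5A (adjusted p = 8.3e-04) and by 0.50 for COX5B (adjusted p = 0.0032). The COX5A call in E3 was lost without the first E3 array, which left -0.09. The paper raises cross-hybridization for the related genes ALD2 and ALD3. Whether COX5A and COX5B, NDE1 and NDE2, CYC1 and CYC7, or SDH4 and SHH4 shared signal on these arrays was not tested.

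COX13 (YGL191W) had 0.03 and 0.13 in low zinc and -0.26 and -0.44 with Zap1TC (1.27-fold lower, adjusted p = 0.0012), a difference of 0.43 (adjusted p = 0.0038). With loess within print-tip blocks it had 0.03 in E3 and a difference of 0.12 (adjusted p = 0.285), and neither was called. COX6 (YHR051W), COX7 (YMR256C) and COX8 (YLR395C) were called in neither experiment, and COX12 (YLR038C) was read on 1 array of E4, at -0.01, and not called in E3. All 9 genes of complex IV had means below 0 in E3, of which 3 were called, but with loess within print-tip blocks 3 of the 9 were above 0. In E4 the count of 4 called higher and 0 lower was the same in every alternative tried.

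The ATP synthase had 6 of 10 genes called higher in low zinc and 0 lower. With plain background subtraction 4 were higher, against 21% of all genes. With loess within print-tip blocks 6 were higher and 1 (ATP14) was lower, against 24.8% and 24% of all genes. The F1 part of the enzyme, which makes ATP, includes ATP1 (YBL099W) (alpha), ATP2 (YJR121W) (beta), ATP3 (YBR039W) (gamma), ATP16 (YDL004W) (delta) and ATP15 (YPL271W) (epsilon). ATP1 had 0.66 and 0.46 in low zinc (mean 0.56 ± 0.15, 1.47-fold, adjusted p = 1.1e-04), the highest mean of the group in E4, and 0.22 and 0.10 with Zap1TC (mean 0.16 ± 0.08, adjusted p = 0.0742). The difference of 0.40 (adjusted p = 0.0069) was not called without the first E4 array. ATP1 gave 205 and 297 units in low zinc against 115 and 191 in zinc-replete cells.

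ATP15 was the gene called higher in both experiments, with 0.57 and 0.34 in low zinc (1.37-fold, adjusted p = 0.0018) and 0.59 and 0.23 with Zap1TC (1.33-fold, adjusted p = 0.0024). Without the first E3 array it had 0.23 in E3 and was not called. ATP2 had 0.37 and 0.47 with Zap1TC (1.34-fold, adjusted p = 3.6e-04), and the 1 E4 array that read it gave 0.43. With loess within print-tip blocks ATP2 had -0.11 in E3 and was not called, and its E3 call was also lost with the deposited log2 values. ATP3 and ATP16 were not called in low zinc and were lower with Zap1TC, ATP3 at -0.27 and -0.30 (1.22-fold lower, adjusted p = 0.0029) and ATP16 at -0.19 and -0.22 (1.15-fold lower, adjusted p = 0.015). The E3 call for ATP16 was lost without either E3 array. The genes of the F1 part therefore divided in E3, with ATP2 and ATP15 called higher and ATP3 and ATP16 lower. This division depended on the processing. With the deposited log2 values 1 ATP synthase gene was called higher in E3 and 7 lower, against 28.2% and 34.1% of all genes.

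The other 6 genes encode the membrane part and the stalk that holds the F1 part in place. ATP17 (YDR377W) (subunit f) had 0.46 and 0.39 in low zinc (mean 0.42 ± 0.04, 1.34-fold, adjusted p = 3.0e-04) and -0.33 and -0.25 with Zap1TC (mean -0.29 ± 0.05, 1.22-fold lower, adjusted p = 0.0021). Its difference of 0.72 (adjusted p = 8.7e-05) was the largest rise among the 32 genes tested for it. ATP5 (YDR298C), the stalk protein OSCP, had 0.45 and 0.40 in low zinc (1.35-fold, adjusted p = 6.0e-04) and 0.04 and -0.19 with Zap1TC (adjusted p = 0.382), a difference of 0.50 (adjusted p = 0.0017). In both of these genes the low-zinc values lay above all Zap1TC values.

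ATP4 (YPL078C) (subunit b) had 0.28 and 0.27 in low zinc (1.21-fold, adjusted p = 0.0035) and -0.14 and -0.10 with Zap1TC, and ATP7 (YKL016C) (subunit d) had 0.20 and 0.25 in low zinc (1.17-fold, adjusted p = 0.032) and 0.01 and -0.31 with Zap1TC. They differed between the experiments by 0.40 (adjusted p = 0.0030) and 0.38 (adjusted p = 0.016). The E4 call for ATP7 was lost without either E4 array, and its difference without the second E3 array. ATP14 (YLR295C) (subunit h) had -0.16 and -0.16 in low zinc (adjusted p = 0.116) and -0.22 and -0.54 with Zap1TC (mean -0.38 ± 0.23, adjusted p = 0.0018), a call lost without the second E3 array. ATP20 (YPR020W) (subunit g) was not called in E4 and was read on 1 array of E3, at -0.45.

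The contrast of E4 with E3 asks whether the same genes responded alike to low zinc and to Zap1TC, and it also compares the media and the time of growth. It removes by construction a dye effect that is constant for a gene. Of the 32 genes read on all 4 arrays, 13 were called higher in E4 than in E3 and 5 lower, against 26.8% and 21.7% of the 4992 genes tested. The 13 include CYC7, and 12 of 31 were higher with dim genes left out. The ATP synthase had 5 of 9 higher and 0 lower, and complex IV had 5 of 8 higher and 0 lower. The 5 genes called lower were NDE1, SDH4, QCR9, CYT1 and CYC1. The median difference was 0.21, against 0.02 over all genes tested. All 9 ATP synthase genes had a difference above 0, although 1 of the 9 was below 0 with loess within print-tip blocks, with no background correction, without the second E3 array and without the first E4 array.

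By the calls in each experiment, 5 of the 32 genes were lower in both (SDH2, QCR6, QCR8, CYC1 and CYC7), 1 was higher in both (ATP15) and 7 were called in neither. COX5A, COX9 and ATP17 were higher in low zinc and lower with Zap1TC, and 0 genes were lower in low zinc and higher with Zap1TC. The shares of all genes in these joint classes were not counted, so these counts have no background beside them. The E3 and E4 means had a Pearson's r of 0.37 over the 32 genes and 0.46 over all 4992 genes. For genes called the same way in both experiments, dye and condition cannot be told apart. In E4 15 of 18 calls held in every alternative that tested the gene, against 8 of 19 in E3, and 7 of 18 held for the difference. Of these, CYC7 had no E4 test with dim genes left out. NDI1 in E4 and NDE2 in E3 had none with the replicate number as a block. With plain background subtraction the E4 calls for QCR10, ATP4 and ATP7 were lost, the E3 calls for CYC1, COX5A, COX9, ATP3 and ATP16, and the differences for SDH4, QCR2, QCR6, CYT1, CYC1, COX13, ATP1, ATP4 and ATP7.

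The reference cultures also differed in these genes. The Cy3 signal above background, divided by the median gene of its array, was set side by side for the E3 vector cultures in SD galactose and the E4 zinc-replete cultures in LZM, a description chosen after seeing the data and given with no test, since medium, plasmid and array cannot be told apart. On both E3 arrays 31 of the 32 genes stood above both E4 arrays, against 51.5% of 4990 genes. The median was 2.40-fold higher in the vector cultures, or 1.26 on the log2 scale, against 0.25 over all genes. SDH4 stood at 16.1 and 15.1 times the median gene in the vector cultures, against 0.970 and 1.14 in the zinc-replete LZM cultures, and SDH1 at 17.4 and 17.1, against 1.33 and 1.32. SDH2 was 11.2-fold and CYC7 9.66-fold higher in the vector cultures. CYC1 was 3.49-fold higher and the median gene of complex IV 1.61-fold higher.

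The exception was COX5B, the form of scarce oxygen, at 1.27 and 1.34 in the vector cultures against 1.55 and 2.24 in the zinc-replete LZM cultures. Its partner COX5A was higher in the vector cultures. The count was 28 of 32 when arrays were scaled to the genes they share or by quantiles, where 46.6% and 42.7% of all genes stood above, and 31 without background subtraction, where 40.7% did.

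**Figure D3:**
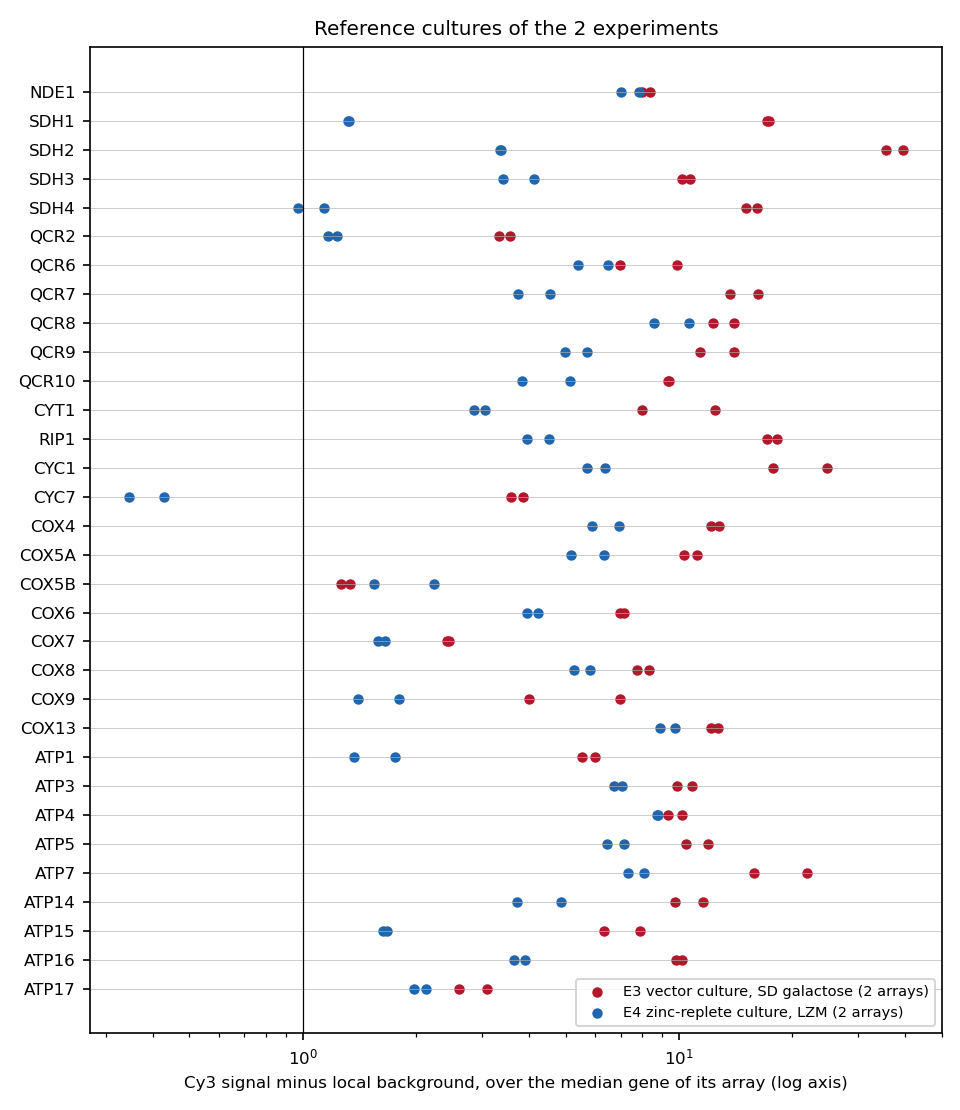
Cy3 signal above local background over the median gene of its array (x axis, log scale) for the 32 genes (y axis), in the E3 vector cultures (red, 2 arrays) and the E4 zinc-replete LZM cultures (blue, 2 arrays). The red points lie to the right of the blue for 31 genes, with the widest gaps for SDH1, SDH2, SDH4 and CYC7, and to the left for COX5B.

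Genes that regulate, assemble or feed the respiratory chain were taken from 11 lists with 99 genes. In E4, 84 of these were tested, of which 17 were higher and 28 lower, and in E3, 89 were tested, of which 18 were higher and 42 lower. The background shares are those given above. The 3 other ATP synthase subunits on a list were not read.

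Among 7 transcription regulators of respiration, 1 was higher and 3 were lower in E4, and 2 were higher and 2 lower in E3. HAP4, the activating subunit of the Hap2/3/4/5 complex, had -0.37 and -0.39 in low zinc (adjusted p = 0.0011) and 0.58 and 0.37 with Zap1TC (adjusted p = 1.7e-04), and the 2 experiments did not overlap. HAP1 had 0.30 and 0.32 in low zinc (adjusted p = 0.0021) and 0.62 and 0.51 with Zap1TC (adjusted p = 2.5e-05). HAP2, a DNA-binding subunit, fell in low zinc (-0.47 and -0.33), and HAP5, another, fell with Zap1TC (-0.32 and -0.25).

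Of 8 heme synthesis genes, 4 were higher and 0 lower in low zinc, and 3 were higher and 5 lower with Zap1TC. HEM13, coproporphyrinogen oxidase, was the highest in both, with 0.48 and 0.62 in low zinc and 1.25 and 1.58 with Zap1TC. HEM2, the zinc enzyme porphobilinogen synthase, had 0.30 and 0.18 in low zinc (adjusted p = 0.0116) and -0.67 and -0.55 with Zap1TC (adjusted p = 1.9e-05). The direction of HEM2 was therefore opposite in the 2 experiments. HEM12 was likewise called higher in low zinc and lower with Zap1TC.

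**Figure D4:**
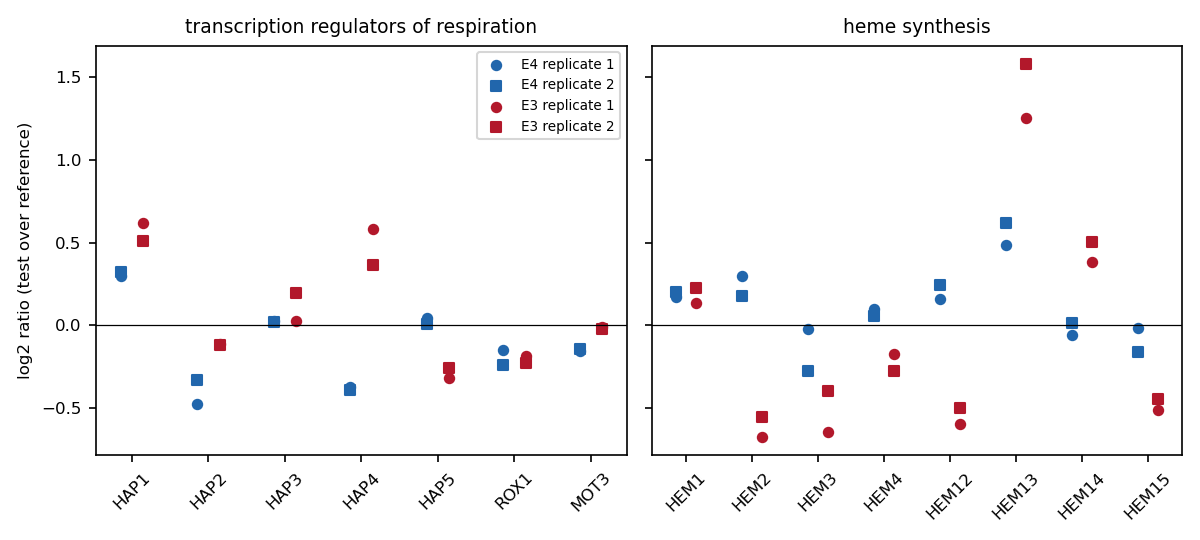
Log2 ratio (y axis) on each array for the transcription regulators of respiration (left) and the heme synthesis genes (right), with E4 in blue and E3 in red and circles and squares for replicates 1 and 2. HAP4, HEM2 and HEM12 were called in opposite directions in the 2 experiments, and HEM13 reaches 1.25 and 1.58 in E3.

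Of the complex IV assembly genes, 3 of 21 tested were higher and 10 lower in low zinc, and 2 of 21 were higher and 13 lower with Zap1TC. COX17, a copper chaperone, fell in both, with -0.53 and -0.54 in low zinc and -0.39 and -0.56 with Zap1TC. COX11, which delivers copper to the complex, also fell in both, with -0.43 and -0.38 in low zinc and -0.52 and -0.68 with Zap1TC. OXA1, which inserts proteins into the inner membrane, had -0.38 and -0.31 in low zinc and 0.35 and 0.22 with Zap1TC and was called in both. COX15, a heme A synthesis gene, was higher in low zinc at 0.34 and 0.31.

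Of the ATP synthase assembly factors and inhibitors, 2 of 8 were higher and 2 lower in low zinc, and 0 of 9 were higher and 4 lower with Zap1TC. INH1, the inhibitor of ATP hydrolysis by the enzyme, had 0.44 and 0.47 in low zinc (adjusted p = 8.2e-04) and -0.27 and -0.59 with Zap1TC (adjusted p = 7.4e-04). ATP12, an F1 assembly chaperone, fell in low zinc (-0.37 and -0.24). Of the complex III assembly and cytochrome c maturation genes, 1 of 7 was higher and 2 were lower in low zinc, and 0 of 6 were higher and 3 lower with Zap1TC. CYT2, the heme lyase for cytochrome c1, fell in low zinc (-0.55 and -0.68), CYC3, the heme lyase for cytochrome c, had 0.22 and 0.15 there and was called higher, and BCS1, which inserts the Rieske protein, fell with Zap1TC (-0.32 and -0.35).

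Of the complex II assembly genes and paralogs, 1 of 5 was higher and 2 were lower in low zinc, and 3 of 7 were higher and 2 lower with Zap1TC. SHH3, a paralog of SDH3, had 0.11 and -0.12 in low zinc (adjusted p = 0.994) and 1.42 and 0.99 with Zap1TC, the largest rise of this list. SHH4, a paralog of SDH4, was higher in both, with 0.17 and 0.36 in low zinc and 0.52 and 0.61 with Zap1TC, although its Cy5 spots were not well above background on the first E4 array. SDH5, which is needed to attach the flavin to SDH1, fell in both, with -0.56 and -0.47 in low zinc and -0.37 and -0.53 with Zap1TC.

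Of the activators of mitochondrial mRNA translation and processing, 1 of 12 was higher and 6 were lower in low zinc, and 2 of 13 were higher and 7 lower with Zap1TC. CBP1, which stabilizes the mitochondrial cytochrome b mRNA, fell most in both, with -0.68 and -0.55 in low zinc and -0.44 and -0.38 with Zap1TC. CBS1 was the gene called higher in low zinc (0.18 and 0.17), and PET111, a translational activator of a mitochondrial complex IV subunit, had the larger rise of the pair with Zap1TC (0.21 and 0.22).

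Of 9 ubiquinone synthesis genes, 1 was higher and 2 were lower in low zinc, and 1 was higher and 4 were lower with Zap1TC. COQ2 rose in both, with 0.47 and 0.26 in low zinc and 0.38 and 0.43 with Zap1TC. COQ1 was the lowest in low zinc (-0.30 and -0.37), and COQ5 the lowest with Zap1TC (-0.58 and -0.47). Of the other electron donors, 1 of 4 was higher and 0 lower in low zinc, and 2 of 5 were higher and 2 lower with Zap1TC. CYB2, the L-lactate cytochrome c oxidoreductase, had -1.20 and -1.17 with Zap1TC (adjusted p = 3.5e-07) and was read on 1 E4 array, where Cy5 was not well above background. GUT2, the mitochondrial glycerol-3-phosphate dehydrogenase, had -0.12 and -0.02 in low zinc and 0.44 and 0.60 with Zap1TC, and DLD1, a D-lactate dehydrogenase, was called higher in both.

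Of the carriers that exchange ADP for ATP and bring in phosphate, 2 of 3 were higher and 1 lower in low zinc, and 3 of 4 were higher and 0 lower with Zap1TC. PET9, the main ADP/ATP carrier, had 0.51 and 0.35 in low zinc (adjusted p = 4.5e-04) and 0.48 and 0.59 with Zap1TC (adjusted p = 5.8e-05). AAC1, a minor form, had 0.45 and 0.74 with Zap1TC, and AAC3, the form of growth without oxygen, was called lower in low zinc (adjusted p = 0.044) with Cy5 spots not well above background on both E4 arrays.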

How the data were processed

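The deposited scanner tables give Cy5 and Cy3 mean and local background intensity per spot, and the value table holds log2 ratios, which the authors adjusted slide by slide with LOWESS and without background subtraction. The deposited ratio of Cy5 to scaled Cy3 was not used. Background was removed by normexp (offset 50), a loess curve (span 0.3) was fitted per array, and the log2 ratios of a gene's spots were averaged. limma 3.58.1 (R 4.3.3) gave each experiment a coefficient in a joint fit, so that both share 1 estimate of the spread, moderated by empirical Bayes, and p-values were adjusted over all genes by Benjamini-Hochberg. Genes not read on both arrays of an experiment had no test. A spot was well above background where it exceeded its local background by over 2.6 SD of that channel's backgrounds.

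The 38 genes, the lists and the alternatives were chosen with earlier results of these data known. Named with full values were genes past the adjusted p with a mean of at least 1.3-fold, genes past the E4 minus E3 contrast and the isoform pairs. Of each list, at most the largest rise and fall per experiment were named, with HAP4 always. Recovery of known changes was tested on simulated data with a noise set by choice. In it 4929 of 5129 genes were left unchanged in E4 and 5580 of 5780 in E3. A simulated 1.5-fold change was called for 67.2% of genes in E4 and 85.1% in E3. Its median fitted log2 values were 0.34 and 0.40. In the data 25.9% of genes were called higher in E4 and 29.4% in E3, so these rates need not hold for the real calls. No sequences were used here.

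Tried as alternatives were plain background subtraction or none, print-tip loess or median centring in place of 1 loess curve, the deposited log2 values, leaving out dim genes or each array, an intensity trend with a robust prior, the replicate number as a block, and a 2-fold mean in the study's rule.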

Additional observations from a re-analysis of the deposited data

Results flagged for a closer look

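The E4 minus E3 difference in log2 ratio passed limma's adjusted p for genes described above, a test of whether the response to low zinc and the response to Zap1TC differed. The contrast also compares the media and the time of growth, and their part cannot be told apart in this design. Of the respiratory genes the difference was above 0 for QCR2 (0.29), QCR6 (0.27), COX4 (0.45), COX5A (0.60), COX5B (0.50), COX9 (0.46), COX13 (0.43), ATP1 (0.40), ATP4 (0.40), ATP5 (0.50), ATP7 (0.38) and ATP17 (0.72). It was below 0 for NDE1 (-0.86), SDH4 (-0.56), QCR9 (-0.50), CYT1 (-0.45) and CYC1 (-0.55). Of the genes on the lists it was above 0 for BCS1 (0.38), COX15 (0.42), INH1 (0.89), HAP5 (0.31), COQ5 (0.50) and HEM2 (0.85). It was below 0 for SHH3 (-1.21), OXA1 (-0.63), HAP1 (-0.25), HAP2 (-0.29), GUT2 (-0.59), HEM13 (-0.86) and HAP4 (-0.85). The fitted differences of CYC7 (0.25) and PET111 (-0.30) rest on Cy5 spots that were not well above background on either E4 array, and that of SHH4 (-0.30) on such spots on 1 E4 array, so no exact difference can be given for these genes. With loess within print-tip blocks the differences of COX4, COX13 and CYC1 were not called.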

How the results depend on the processing

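Low-signal genes and 2 arrays per experiment limit these results. The background shares given above belong to the main fit, and such shares move with the setting. For the difference and for the study's rule they were counted in the main fit only. Leaving out each array in turn gave 11 to 12 genes called higher and 6 to 8 lower in E4, 4 to 6 higher and 9 to 14 lower in E3, and 10 to 14 higher and 4 to 5 lower for the E4 minus E3 difference, where genes read on the kept array alone were tested too. Over the genes tested with all arrays the ranges were 10 to 12 higher in E4, 9 to 13 lower in E3 and 10 to 13 higher for the difference, with the others as given. By the study's rule it gave 0 to 1 higher and 1 to 3 lower in E4, and the median log2 ratio in E4 ran from -0.0070 to 0.028. With plain background subtraction 8 of 36 genes were lower in E3, against 26.5% of all genes. The difference there was called higher for 6 genes and lower for 2. By the study's rule 1 gene was higher and 4 lower in E4 with this subtraction. With the deposited log2 values 22 of 36 genes were lower in E3, against 34.1% of all genes. The difference there was called lower for 3 genes. By these values 1 gene passed the rule as higher in E3 and 2 as lower in E4, and the E4 median was -0.064. With loess within print-tip blocks 0 genes passed the rule as higher in E3, and the E4 median was 0.053. With a mean of at least 2-fold the rule passed 0 genes higher and 0 lower in E3 and 0 lower in E4. Values that changed sign and passed the test on at least 1 side of the change were SDH1 in E3 (-0.14, deposited values), RIP1 in E3 (0.35) and in the difference (-0.27), COX4 (0.34), COX13 (0.031) and ATP2 (-0.11) in E3, all with print-tip loess, and with plain subtraction the differences of CYC7 (-0.43) and SHH4 (0.042). The cause was not tested. Same-numbered arrays had deviations that correlated at -0.0738 over 4992 genes, and with 2 pairs the numbers do not pair the arrays. With the replicate number as a block, 32 genes were read on all arrays. Of these, 10 were higher and 7 lower in E4, against 25.9% and 24.7% of all genes. In E3, 4 were higher and 13 lower, against 27.3% and 32.4%. The difference was called for 13 higher and 5 lower. The planned searches of promoters and comparison of paralog proteins were not run.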
